A study of Mus musculus with 6 samples.

Results

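The genes described here are 31 of the 20914 genes in the deposited count table of mouse liver: the endoplasmic reticulum (ER) chaperones, the ER degradation machinery and the genes of the ATF4 stress response. They were listed by name and role, with no threshold on their values, though results of these data were already known when the list was made. All 31 were in the table and all 31 had enough reads to be tested. The question put to them was whether expressing butyrylcholinesterase, a secreted enzyme that must be folded in the ER, goes with a higher level of the genes that ER load is known to induce.

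The 6 liver RNA libraries fall into 2 groups of 3, PBS and DOX by their titles. Every library has the genotype label BucheKI/KI-Hep, the name parts CKI and Alb-Cre, the prefix S10D and the treatment label BDL, so the knock-in allele, the Cre and the BDL treatment are present in the PBS libraries too and no library without them was analysed here. In liver work BDL commonly means bile duct ligation, but the abbreviation is not written out in the labels, which explain neither DOX nor S10D; Alb-Cre is by its name a Cre recombinase under the albumin promoter, which is active in hepatocytes. The labels do not say that the libraries came from separate animals, give no age or sex, and do not say whether animals were pooled, so the p-values below reflect only how far these libraries differ from each other, a spread that may be technical.

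The ER folds and glycosylates proteins that a cell secretes, and hepatocytes secrete most plasma proteins. When unfolded proteins build up, sensors in the ER membrane start the unfolded protein response. ATF6 is cut to release a transcription factor, IRE1 (the product of Ern1) splices the mRNA of Xbp1, and PERK (the product of Eif2ak3) phosphorylates the translation factor eIF2 alpha, which lowers most protein synthesis while ATF4 is translated more. ATF6 and XBP1 then induce chaperones and degradation genes, and ATF4 induces genes of amino acid supply and, with CHOP (the product of Ddit3), genes of the terminal stress response. Splicing of Xbp1 and translation of Atf4 are not visible in counts per gene, so for these genes only the total mRNA was read.

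Promoter letters known from ER stress genes are shown first. Some of the chaperone and degradation genes described below hold them, and others do not. The classical ER stress response element (ERSE) is CCAAT, 9 further bases and CCACG; the related ERSE-II is ATTGG, 1 further base and CCACG. RefSeq promoters of GRCm38.p6, from 250 bases before to 50 bases after the transcript start, were given for 27 of the 31 genes; Atf6, Derl1, Hyou1 and Manf had no entry. On either strand, the ERSE was found in 8 of the 27 (29.63%), against 39 of all 32851 promoter windows (0.1187%). These elements were first described in promoters of such chaperone genes, so the share is a description and not independent evidence. The sites are printed 5′ to 3′ along the gene's strand, with 5 flanking bases on each side in lower case and the element in capitals; the coordinates are those of the capitals.
Hspa5, chr2:34772025-34772043, plus strand: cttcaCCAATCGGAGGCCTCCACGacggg
Hsp90b1, chr10:86705638-86705656, minus strand: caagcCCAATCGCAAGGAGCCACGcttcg
Hsp90b1, chr10:86705533-86705551, minus strand: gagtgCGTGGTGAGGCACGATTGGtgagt
Creld2, chr15:88819520-88819538, plus strand: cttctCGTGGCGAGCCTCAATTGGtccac
Calr, chr8:84847075-84847093, minus strand: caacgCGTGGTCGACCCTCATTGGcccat
Canx, chr11:50325800-50325818, minus strand: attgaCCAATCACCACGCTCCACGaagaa
Dnajc3, chr14:118937827-118937845, plus strand: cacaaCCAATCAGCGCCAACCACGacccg
Pdia6, chr12:17266491-17266509, plus strand: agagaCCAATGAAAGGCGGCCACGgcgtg
Syvn1, chr19:6046532-6046550, plus strand: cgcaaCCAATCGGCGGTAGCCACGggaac
Herpud1 (ERSE-II), chr8:94386377-94386387, plus strand: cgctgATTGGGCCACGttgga
Hsp90b1 had 2 matches, and in the second of them listed and in the sites of Creld2 and Calr the element runs on the opposite strand, so that it reads CGTGG first. By the GENCODE annotation of GRCm38 the Hspa5 site lies in an exon, since GENCODE starts that gene further upstream than RefSeq does, and the other 9 sites printed above lie outside the gene. Dnajb11 had an ERSE-II after its start site. The ERSE-II was found in 12 of all windows (0.0365%). Of the 27 genes, 10 held an ERSE or ERSE-II and 17 held neither.

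A second set of letters is known from genes of the ATF4 branch. The genes were listed by role, so here too the share is a description and not independent evidence. The core of the C/EBP-ATF response element (CARE core), TGATG, 1 further base and AA, is the kind of site that ATF4 binds as a dimer. It was found in 5 of the 27 genes against 1304 of all windows (3.9694%), which are Asns, Chac1, Nupr1 and Trib3 among the ATF4 and CHOP targets and Herpud1, which also holds the ERSE-II. Sesn2 and Ppp1r15a, also ATF4 and CHOP targets by role, had no match. The Trib3 match lies after the RefSeq start site but outside the gene by GENCODE. Those of Asns and Nupr1 lie in a GENCODE exon of the gene.
Asns, chr6:7693225-7693232, minus strand: ccacaTGATGAAActtcc
Chac1, chr2:119351049-119351056, plus strand: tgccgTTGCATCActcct
Nupr1, chr7:126625573-126625580, minus strand: ccagaTTGCATCAgacag
Herpud1, chr8:94386317-94386324, plus strand: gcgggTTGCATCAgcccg
The XBP1 site core TGACGTGG was in none of the 27 windows and in 222 of all windows (0.6758%). No match says only that these letters are not in these windows.

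**Figure D1:**
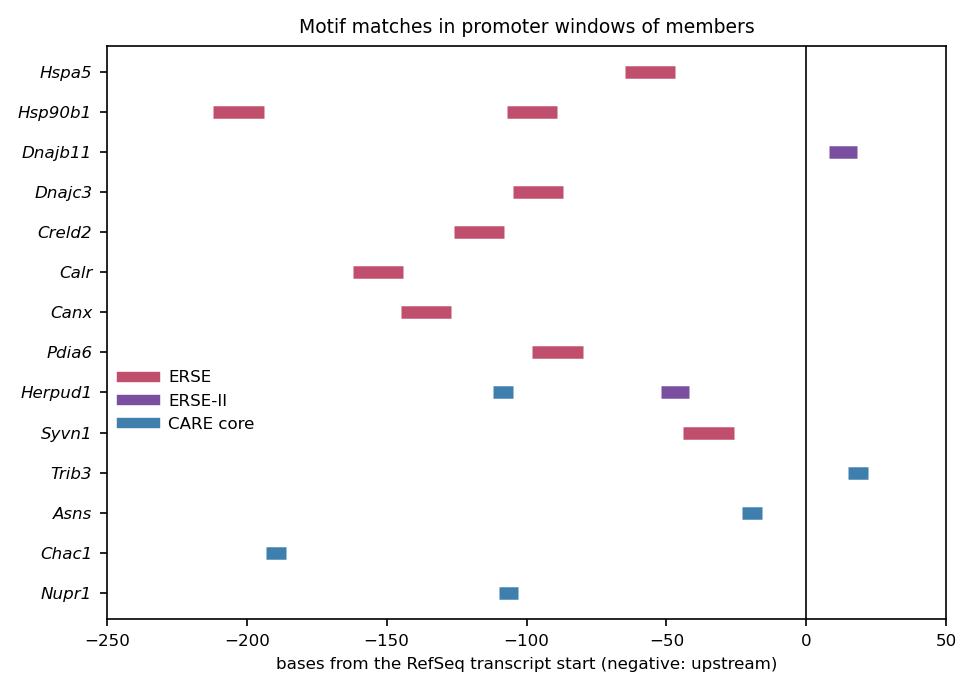
Position of each ERSE, ERSE-II and CARE core match (bars, coloured by motif) in the promoter windows of the 14 genes that hold any, in bases from the RefSeq transcript start on the x axis. The ERSE matches lie between 212 and 26 bases upstream, and only the matches of Dnajb11 and Trib3 lie after the start.

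The overexpressed gene was read first. Bche, the gene of butyrylcholinesterase (chromosome 3, 73635808 to 73708415, GRCm38), stood at 193, 245 and 194 CPM in PBS replicates 1, 2 and 3 and at 969, 448 and 595 CPM in DOX replicates 1, 2 and 3 (CPM are counts per 1e+06 counts after TMM scaling of the libraries). All 3 DOX libraries lay above all 3 PBS libraries, at a log2 fold change of 1.67 (SE 0.27), and the test by edgeR's quasi-likelihood method over the whole table gave an adjusted p = 0.106, above the threshold of 0.05. By counted RNA per length, Bche was small beside the main export product: in DOX replicate 1, its highest library, it stood at 148 FPKM, where Alb, the albumin gene, stood at 48964 FPKM. The sources used here do not say whether the knock-in sequence is the mouse Bche and fully counted, and protein was not measured here. Set against the summed FPKM of 31 genes of secreted plasma proteins, the share of Bche was 0.0256%, 0.0311% and 0.0274% in PBS and 0.0974%, 0.0601% and 0.0640% in DOX.

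None of the 31 ER stress and ATF4 response genes passed the test between DOX and PBS, in either direction. Over all 13725 genes tested, 4 passed, 3 higher and 1 lower, which is 0.0291% (edgeR quasi-likelihood, Benjamini-Hochberg adjusted p under 0.05; with scaling by library size alone, 3 higher and 2 lower). The lowest adjusted p of the 31 was 0.423, that of Ddit3. At an unadjusted p under 0.05 the fit held 1 of the 31 genes, again Ddit3, against 1359 of all genes (9.9%), and DESeq2 called 0 of the 31 as well. The log2 fold changes of the 31 genes ran from -0.92 to 0.50 with a median of -0.01, where that of all genes tested was -0.02, and 13 were positive and 18 negative. Their precision differed from gene to gene: for 29 of 31 the 95% interval of the log2 fold change ended below 1, that is below a 2-fold higher level, and the exceptions were Asns (up to 1.07) and Chac1 (up to 1.15). For 27 of 31 it stayed above -1, the exceptions being Ddit3 (-1.63), Nupr1 (-1.55), Sdf2l1 (-1.45) and Creld2 (-1.43).

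**Figure D2:**
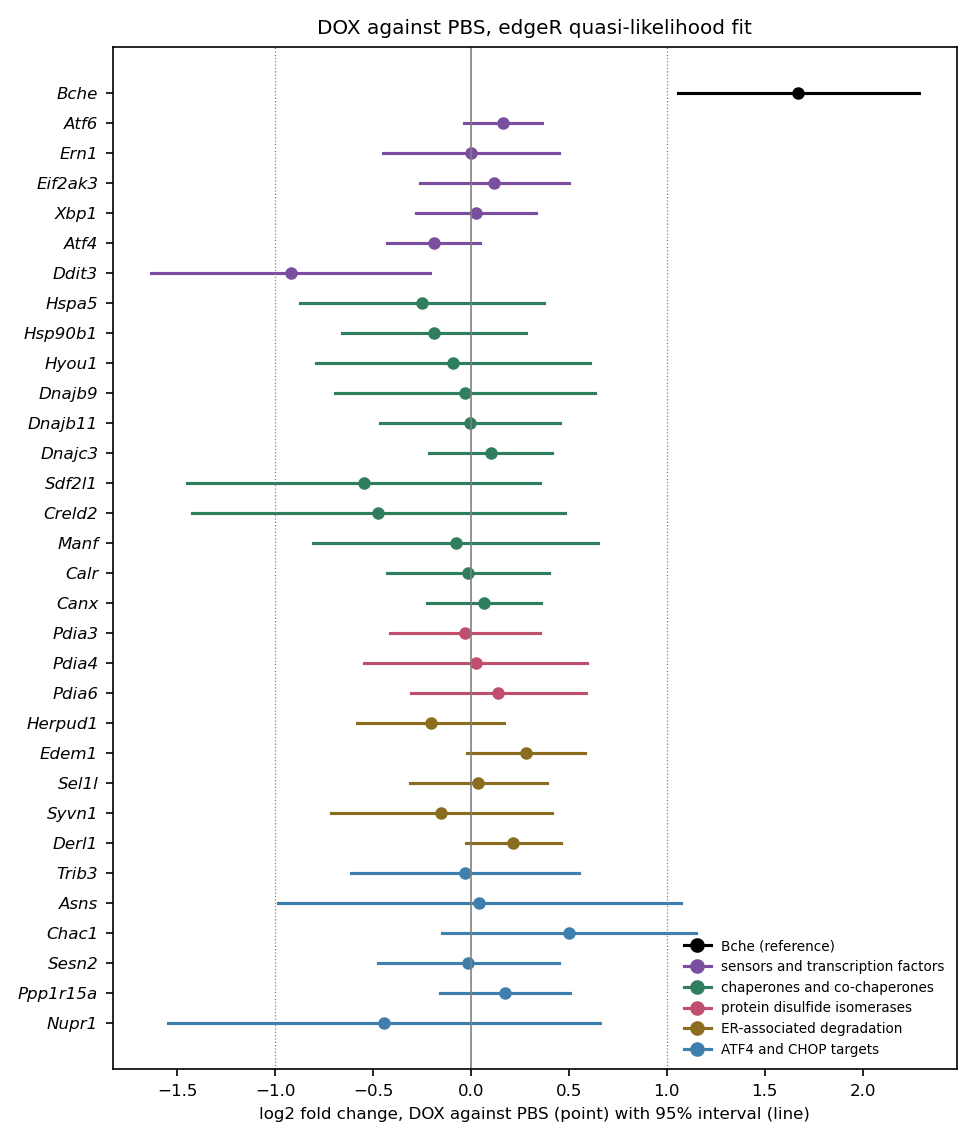
Log2 fold change of DOX against PBS (points) with its 95% interval (lines) for the 31 genes, coloured by role, and for Bche in black; dotted lines mark log2 fold changes of -1 and 1. Bche stands at 1.67, while the intervals of all 31 genes but that of Ddit3 include 0.

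Groups that do not overlap were rare among the 31. All 3 DOX libraries lay above all 3 PBS libraries for Atf6 and Derl1, which is 2 of 31 where 7.84% of all genes did so, and below them for Ddit3, which is 1 of 31 where 9.02% of all genes did so. Both counts are at or below the background share. Scaled by library size only, or on the FPKM table, neither Atf6 nor Derl1 was apart, and Atf4 and Ddit3 were the 2 of 31 genes whose DOX libraries all lay below; in these settings 22.1% and 21.9% of all genes were apart in either direction, against 16.9% with TMM.

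Among the sensors, Atf6 (chromosome 1, 170704674 to 170867771) stood at 82.4, 83.7 and 91.4 CPM in PBS and at 98.9, 95.8 and 93.7 CPM in DOX. The DOX libraries were all higher, by a narrow margin, and the log2 fold change was 0.16 (SE 0.09, adjusted p = 0.566). Ern1, which encodes IRE1, stood at 46.3, 31.7 and 57.6 CPM in PBS and within that range, at 49.9, 45.6 and 40.1 CPM, in DOX. Eif2ak3, which encodes PERK, stood at 25.9, 25.1 and 33.7 CPM in PBS and at 37.8, 27.3 and 26.8 CPM in DOX, with a log2 fold change of 0.12 (SE 0.17). Its highest values were in PBS replicate 3 and DOX replicate 1, a pair of libraries that recurs in nearly every group below.

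The transcription factors of the response did not move together. Xbp1, the target of IRE1, had 214, 197 and 213 CPM in PBS and 253, 195 and 188 CPM in DOX, so that 1 DOX library was above and the other two were below all PBS libraries (log2 fold change 0.03, SE 0.13). Atf4 had 100.3, 114 and 125 CPM in PBS and 98.4, 101 and 97.3 CPM in DOX (adjusted p = 0.572 at a log2 fold change of -0.19, SE 0.10). Its DOX libraries were alike and at the low end of PBS.

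Ddit3, which encodes the pro-apoptotic factor CHOP (chromosome 10, 127290829 to 127293753), had the largest difference of the 31. It stood at 5.98, 7.66 and 13.9 CPM in PBS and at 4.88, 5.76 and 3.89 CPM in DOX. All DOX libraries were below all PBS libraries, but the gap between 5.98 and 5.76 CPM was narrow and the PBS libraries spanned 2.32-fold. The log2 fold change was -0.92 (SE 0.31, adjusted p = 0.423, and 0.158 to 0.699 over the other settings). Without PBS replicate 3, its highest library, the log2 fold change was -0.49. Ddit3 was thus not called, and its values ran toward a lower level in DOX. Markers of bile duct cells ran the same way, with a negative log2 fold change in 9 of 9 and summed CPM of 274 to 386 in PBS and 135 to 263 in DOX, as did neutrophil markers (7 of 7 tested, summed CPM 15.6 to 31.9 and 12.1 to 19.3). Their part in the values of Ddit3 was not tested, and in whole liver, fewer cells of a type and less RNA per cell cannot be told apart.

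The chaperones are the readout with the most reads. Hspa5, which encodes BiP, the main ER chaperone and the regulator that holds the sensors inactive (chromosome 2, 34771970 to 34777547), stood at 817, 880.1 and 1561 CPM in PBS and at 1156, 800.0 and 778 CPM in DOX. The highest library was PBS replicate 3, the next DOX replicate 1, and the other 4 lay between 778 and 880.1 CPM whichever group they came from. The log2 fold change was -0.25 (SE 0.27, 95% interval -0.88 to 0.37, adjusted p = 0.785). Hsp90b1, which encodes the ER chaperone GRP94, had the same order at its top, with 624, 703 and 1015 CPM in PBS and 811, 629 and 614 CPM in DOX (log2 fold change -0.19, SE 0.21).

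Chaperone genes at lower CPM, here Creld2, Sdf2l1, Manf and Hyou1, showed that order with a wider range. Creld2, an ER protein induced by ER stress, stood at 44.1, 38.3 and 113 CPM in PBS and at 67.3, 35.3 and 37.7 CPM in DOX. Sdf2l1, a partner of ER chaperone complexes, stood at 32.0, 28.6 and 74.2 CPM in PBS and at 45.4, 22.6 and 24.2 CPM in DOX. For both, PBS replicate 3 was the highest and DOX replicate 1 the next, and PBS replicates spanned 2.94-fold and 2.59-fold. Their log2 fold changes of -0.47 (SE 0.42, adjusted p = 0.733) and -0.55 (SE 0.39, adjusted p = 0.675) were within that spread. Manf, a secreted ER stress protein, had 116, 119 and 257 CPM in PBS and 199, 122 and 145 CPM in DOX (log2 fold change -0.08, SE 0.32). Hyou1, an exchange factor of BiP, had 141, 134 and 290.2 CPM in PBS and 228, 147 and 156 CPM in DOX (log2 fold change -0.09, SE 0.31). In both genes the remaining DOX libraries were also above the lower PBS pair.

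The co-chaperones of BiP were level between the groups in their means. Dnajb9 averaged 81.9 ± 37.3 CPM in PBS and 80.2 ± 16.2 CPM in DOX (SD, n = 3 each), Dnajb11 99.6 ± 28.0 and 99.3 ± 17.2 CPM, and Dnajc3 249.6 ± 31.9 and 267 ± 31.6 CPM. All 3 recruit BiP through a J domain, and Dnajc3 is also known as an inhibitor of PERK. The lectin chaperones, which hold glycoproteins until they are folded, had narrow ranges within PBS (1.13-fold for Calr and 1.16-fold for Canx). Calr (calreticulin) stood at 835, 925 and 940.3 CPM in PBS and at 1132, 826 and 713 CPM in DOX, so that its DOX libraries lay on either side of PBS (log2 fold change -0.02, SE 0.18). Canx (calnexin) averaged 298 ± 22.7 and 313 ± 38.6 CPM (log2 fold change 0.07, SE 0.13). Of the 11 chaperones, 2 had a positive log2 fold change, Dnajc3 and Canx, and the median was -0.08.

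**Figure D3:**
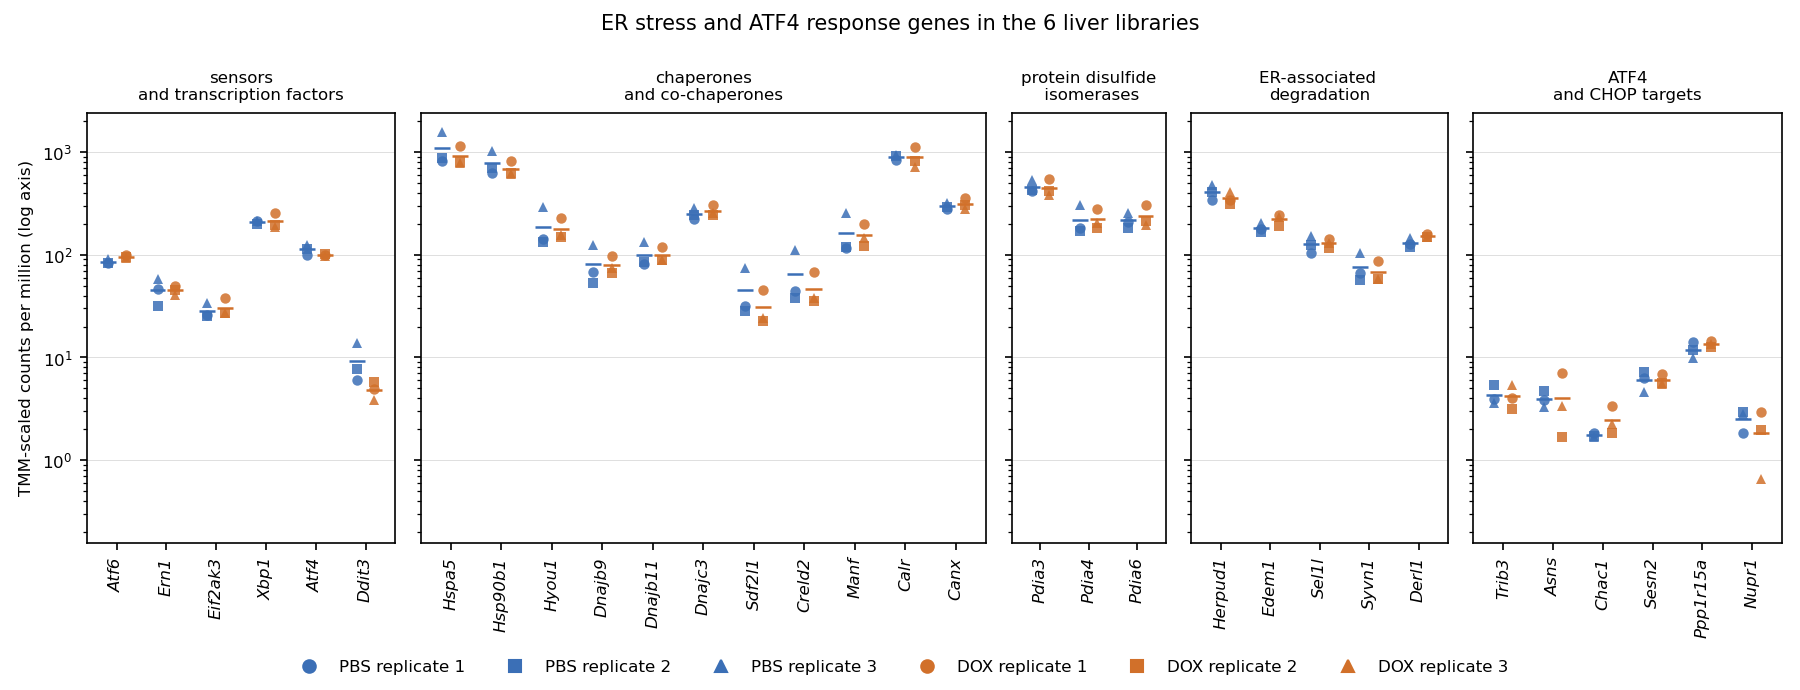
TMM-scaled CPM on a log axis for each of the 31 genes in the 3 PBS libraries (blue) and the 3 DOX libraries (orange), with marker shapes for the replicate numbers and short bars for group means. For most chaperones the PBS triangle (replicate 3) is the highest point and the DOX circle (replicate 1) the next, as for Hspa5 at 1561 and 1156 CPM.

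The protein disulfide isomerases, which form and rearrange disulfide bonds in the ER, followed the same pair of libraries. Pdia4 stood at 183, 169 and 304 CPM in PBS and at 281, 181 and 204 CPM in DOX (log2 fold change 0.02, SE 0.25). Pdia3, the partner of calreticulin and calnexin, averaged 461 ± 64.5 and 451 ± 85.7 CPM, and Pdia6 216 ± 37.3 and 238 ± 59.9 CPM. The highest library was DOX replicate 1 for Pdia3 and Pdia6 and PBS replicate 3 for Pdia4.

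In ER-associated degradation, which carries misfolded proteins to the cytosol, Derl1 and Edem1 had the largest positive differences. Derl1, a membrane component of the export channel (chromosome 15, 57869502 to 57892448), stood at 129, 119 and 144 CPM in PBS and at 159, 148 and 148 CPM in DOX. All DOX libraries were higher, but the difference was not called (log2 fold change 0.22, SE 0.11; adjusted p = 0.539). Edem1, which routes misfolded glycoproteins to degradation, stood at 179, 167 and 204 CPM in PBS and at 244, 191 and 233 CPM in DOX. The groups overlapped by 1 library, and Edem1 was not called either (adjusted p = 0.520; log2 fold change 0.28, SE 0.13).

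Herpud1, a scaffold of the degradation complex that holds both an ERSE-II and a CARE core, had 338, 413 and 477 CPM in PBS and 341, 311 and 413 CPM in DOX (adjusted p = 0.706; log2 fold change -0.21, SE 0.16). Syvn1, the ubiquitin ligase HRD1, had 65.9, 56.3 and 104 CPM in PBS and 87.6, 58.1 and 57.8 CPM in DOX, again with PBS replicate 3 and DOX replicate 1 on top. Sel1l, the adaptor of HRD1, averaged 127 ± 24.9 and 131 ± 13.5 CPM. The 5 degradation genes thus held 3 positive and 2 negative log2 fold changes, and their ranges over the 6 libraries were no wider than 1.85-fold within either group.

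The ATF4 and CHOP targets were expressed at low levels in every library. Chac1, a glutathione-degrading enzyme, stood at 1.85, 1.72 and 1.69 CPM in PBS and at 3.36, 1.83 and 2.24 CPM in DOX, and these are 57 to 126 reads a library. Its log2 fold change of 0.50 (SE 0.28, adjusted p = 0.584) was the largest positive one of the 31. Without DOX replicate 1, at 3.36 CPM, it was 0.22. DOX replicate 3 was also above all PBS libraries, and DOX replicate 2 was within PBS. Asns, the asparagine synthetase, stood at 3.88, 4.75 and 3.26 CPM in PBS and at 7.13, 1.68 and 3.40 CPM in DOX, a range of 4.23-fold within DOX (log2 fold change 0.04, SE 0.45). Nupr1, a stress-induced nuclear protein, stood at 1.82, 2.94 and 2.84 CPM in PBS and at 2.94, 1.98 and 0.648 CPM in DOX, where the last value is 24 reads (adjusted p = 0.785; log2 fold change -0.44, SE 0.48). These 3 genes had no order that the groups share.

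Trib3, a pseudokinase induced by ATF4 and CHOP, averaged 4.28 ± 0.945 CPM in PBS and 4.18 ± 1.12 CPM in DOX. Sesn2, a sensor of leucine, averaged 6.08 ± 1.33 and 6.01 ± 0.782 CPM. Ppp1r15a, which encodes GADD34, the subunit that directs a phosphatase to eIF2 alpha and so restores translation, averaged 11.9 ± 2.07 and 13.5 ± 0.889 CPM (log2 fold change 0.17, SE 0.15). The median over the 6 targets was 0.01, with 3 positive and 3 negative.

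Per length, the chaperones stood far above the stress effectors. The mean FPKM over the 6 libraries was 462 for Calr, 385 for Hspa5, 267 for Hsp90b1, 188 for Herpud1 and 185 for Manf at the top. At the bottom it was 2.81 for Ddit3, 2.27 for Sesn2, 2.05 for Trib3, 1.34 for Chac1 and 1.17 for Asns. In either run the range of each gene over the 6 libraries overlapped that of the next. Within every library, though, Hspa5 stood above Hsp90b1 and Hsp90b1 above Herpud1.

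Most of the 31 genes, the ATF4 and CHOP targets aside, followed a pattern between libraries. PBS replicate 3 was the highest of the 6 libraries for 15 of 31 genes and DOX replicate 1 for 14, where these libraries were the highest for 2190 and 2425 of all 13725 genes tested. The 2 genes that peaked elsewhere were both ATF4 targets by role: Sesn2 in PBS replicate 2 and Trib3 in DOX replicate 3 (5.37 CPM, against 5.36 CPM in PBS replicate 2). PBS replicate 1 and DOX replicate 2 were the highest for 0 genes. Atf4, Ddit3, Herpud1 and Trib3 were below their own mean in DOX replicate 1, and 5 of the 6 ATF4 and CHOP targets in PBS replicate 3. In the chaperones, the median deviation from a gene's own mean over the 6 libraries was 0.67 in PBS replicate 3 and 0.34 in DOX replicate 1 on the log2 scale, and -0.21 to -0.17 in the other 4 libraries. Over all genes tested these medians lay within -0.02 and 0.01. For the chaperones the median within-group SD of log2 CPM reached 0.51 in PBS and 0.32 in DOX, against 0.17 and 0.18 for all genes tested.

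**Figure D4:**
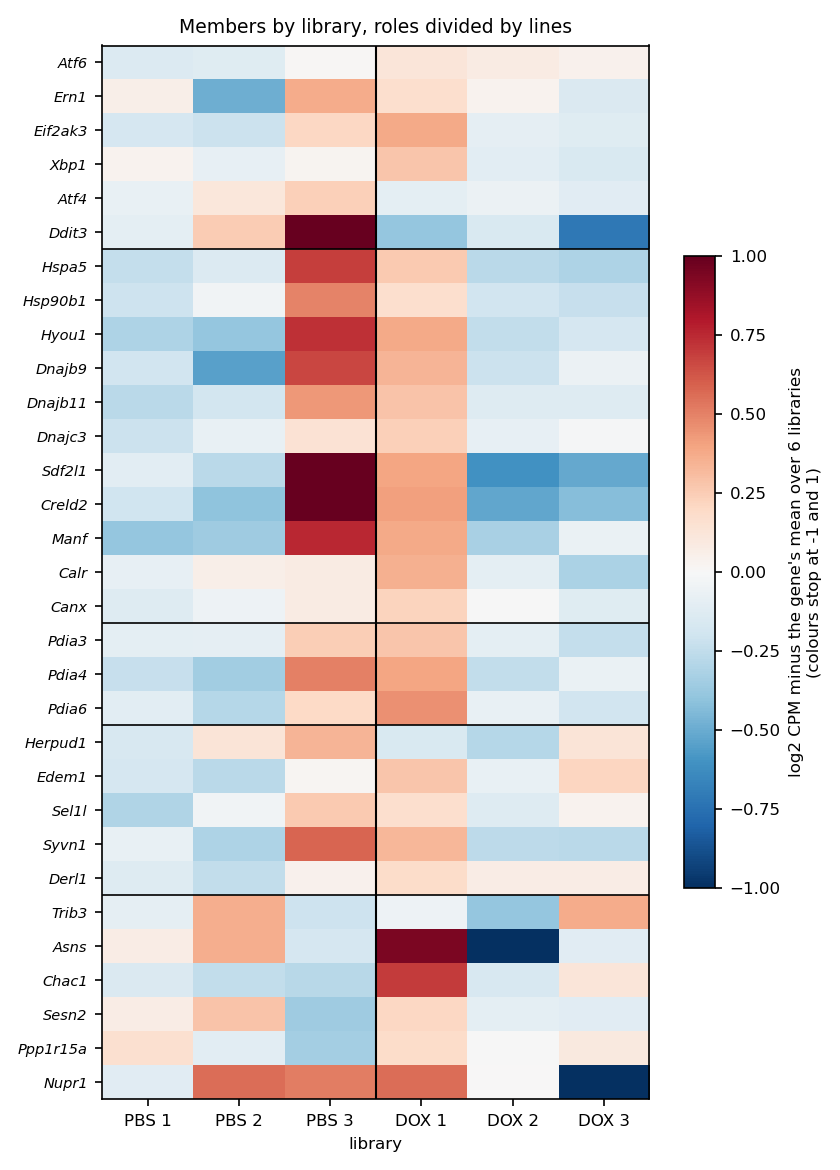
Heat map of log2 CPM minus each gene's mean over the 6 libraries, genes in rows by role (divided by horizontal lines) and libraries in columns, PBS left and DOX right of the vertical line; red is above and blue below the mean, and colours stop at -1 and 1. PBS replicate 3 and DOX replicate 1 are red through the chaperones, with medians of 0.67 and 0.34, and the ATF4 and CHOP targets at the bottom do not follow PBS replicate 3, where their median is -0.24.

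Chaperones and Bche put the libraries in different orders. PBS replicate 3 held the highest Hspa5 of all, 1561 CPM, with 194 CPM of Bche, while DOX replicate 3 held 595 CPM of Bche and the lowest Hspa5, 778 CPM. DOX replicate 1 was high for both. The 11 chaperones summed to 3258, 3505 and 5112 CPM in PBS and to 4513, 3287 and 3166 CPM in DOX. Genes with an ERSE or ERSE-II in the window showed the pattern, with PBS replicate 3 the highest for 6 of 10 and DOX replicate 1 for 4 of 10, and so did the 17 with neither (7 and 8). The ATF4 and CHOP targets differed from the chaperones in PBS replicate 3, where their median deviation was -0.24, as against 0.38 in DOX replicate 1. With 3 libraries a group, the sign of the chaperone group depends on these libraries: without PBS replicate 3 all 11 chaperones had a positive log2 fold change (median 0.18), and without DOX replicate 1 only 1 of 11 did (median -0.29). Without PBS replicate 1 or 2 the median was -0.26, and without DOX replicate 2 or 3 it was 0.04 and -0.00. No chaperone was called in any of these fits.

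The heat shock genes of the cytosol, a separate stress response, shared 1 of these libraries and not the other. PBS replicate 3 was the highest for 10 of 15, and DOX replicate 1 for 1 of 15. Their sum was 3212, 3242 and 4161 CPM in PBS and 3033, 3220 and 3444 CPM in DOX. Their median log2 fold change was -0.17, with 4 of 15 positive and 0 called, while without PBS replicate 3 the median was 0.03 and without PBS replicate 2 it was -0.33. Hspa1a, an inducible HSP70, averaged 2.46 ± 0.491 CPM in PBS and 1.36 ± 0.256 CPM in DOX (adjusted p = 0.416), and Hspb1, a small heat shock protein, 12.4 ± 4.52 and 18.6 ± 2.21 CPM (adjusted p = 0.480).

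Other genes of the secretory pathway mostly had positive values, with 0 called in each list, and the contrast with the chaperones was not tested. Its size depended on PBS replicate 3. Without that library the chaperone median of 0.18 lay above those of other ER folding (0.13) and other ER degradation (0.12). It then lay below those of ER import and signal peptide cleavage (0.34), N-glycosylation (0.27) and ER to Golgi transport (0.25). Of 22 genes of ER import and signal peptide cleavage, 21 were positive (median log2 fold change 0.24), 7 were higher at an unadjusted p under 0.05, where 5.03% of all genes were, and for 8 all DOX libraries lay above all PBS libraries, where 7.84% of all genes did. Sec61g, a subunit of the channel through which new proteins enter the ER, averaged 29.5 ± 4.29 CPM in PBS and 42.1 ± 3.03 CPM in DOX (adjusted p = 0.259; log2 fold change 0.51, SE 0.12). Sec61b, another subunit, averaged 37.9 ± 6.25 and 57.3 ± 8.39 CPM (log2 fold change 0.60, SE 0.15, adjusted p = 0.313). Neither passed. DOX replicate 1 was the highest library for 17 of the 22, and PBS replicate 2 the lowest for 13. Relative to the median of all genes, the list stood at 0.26, and at 0.20 to 0.35 over the other settings, and DESeq2 called 2 of its genes higher, where it called 0.947% of all genes higher. DESeq2 also called 1 gene higher in each of the lists of ER to Golgi transport, the mitochondrial unfolded protein response and secreted plasma proteins. The sum over the list was 1778, 1699 and 2058 CPM in PBS and 2580, 2060.1 and 2186 CPM in DOX, so that PBS replicate 3, the library with the most chaperone RNA, was just below the lowest DOX library.

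Lists further along the pathway leaned the same way by smaller amounts. Among genes of ER to Golgi transport 22 of 26 were positive, with a median of 0.16. The median was 0.25 without PBS replicate 3 and 0.11 without PBS replicate 2 or DOX replicate 1. DOX replicate 1 was the highest library for 16 of the 26, and without it 18 were positive. Ergic1, of the compartment between ER and Golgi, averaged 65.6 ± 1.67 and 82.3 ± 0.503 CPM (log2 fold change 0.33, SE 0.08, adjusted p = 0.282). Sec24d, a coat protein of ER export, had a log2 fold change of 0.37 (adjusted p = 0.423). For N-glycosylation 16 of 19 were positive (median 0.14, but 0.27 without PBS replicate 3 and 0.09 without PBS replicate 2 or DOX replicate 1), with Dad1 at 0.26 and Stt3a, a catalytic subunit of the oligosaccharyltransferase, at 0.35. For other ER folding and oxidation genes it was 14 of 19 (median 0.15), with Sil1, an exchange factor of BiP, at 0.25 and Fkbp14, a prolyl isomerase, at 0.34. For other ER degradation genes it was 16 of 22 (median 0.09), with Vcp, the ATPase that extracts proteins from the membrane, at 0.24 and Edem2 at 0.38. None of these 8 genes passed (adjusted p = 0.282 to 0.500). These directions are read against a TMM scaling: scaled by library size alone, the median of all genes was -0.15, and those of ER import, ER to Golgi transport, N-glycosylation and other ER folding were 0.11, 0.02, 0.00 and 0.02, while that of other ER degradation turned to -0.05. Relative to all genes the 5 medians then were 0.26, 0.17, 0.15, 0.17 and 0.10, as under TMM.

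Marker sums of several cell types reached higher in DOX, as these lists did, and their part in the values was not tested. Hepatocyte markers summed to 71453 to 88741 CPM in PBS and 88148 to 145282 CPM in DOX, mostly Alb, with 5 of 10 positive. Endothelial markers were positive in 9 of 10 (sums 87.9 to 180.1 and 147 to 262 CPM) and stellate markers in 10 of 10 (sums 218 to 435 and 211 to 519 CPM). Macrophage markers summed to 1105 to 1135 CPM in PBS and 977 to 1307 CPM in DOX, and erythroid markers to 54.6 to 91.4 and 24.0 to 179 CPM. For the macrophage, erythroid and stellate lists the lowest sum was in DOX as well as the highest. Markers of the exocrine pancreas were near 0: of 12 genes 3 were in the table, summing to 5.20 to 6.63 CPM in PBS and 6.97 to 8.10 CPM in DOX.

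The wider ATF4 program had no common direction. Of 37 genes of amino acid uptake, synthesis and tRNA charging, 23 were positive with a median of 0.04 (0.01 without PBS replicate 3). At an unadjusted p under 0.05 the list had 4 higher and 3 lower, where 5.03% and 4.87% of all genes were, and 0 were called. Xpot, the tRNA exporter, averaged 66.9 ± 3.67 and 86.2 ± 5.84 CPM (log2 fold change 0.37, SE 0.09, adjusted p = 0.314), and Psph, of serine synthesis, had a log2 fold change of 0.47 (adjusted p = 0.400). Of 24 eIF2 kinases and other regulators of ER stress, 12 were positive and 12 negative (median -0.00). Bak1, a pore-forming protein of apoptosis, had a log2 fold change of -0.32 and Tmbim6, an inhibitor of ER stress-induced death, of 0.26, and neither passed. Genes of the mitochondrial unfolded protein response were positive in 9 of 10 with a median of 0.06, and DOX replicate 3 was the highest library for 6 of the 10. Without that library, or without PBS replicate 1, 6 of 10 were positive; the median was 0.03 without DOX replicate 3, 0.15 without DOX replicate 1, 0.12 without DOX replicate 2 and 0.10 without PBS replicate 3. The smallest p values of that list were those of Clpx, the unfoldase of a matrix protease, at 0.47 (adjusted p = 0.355) and Spg7 at 0.22. Scaled by library size alone, the medians of the amino acid and mitochondrial lists were -0.09 and -0.08, still above that of all genes.

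**Figure D5:**
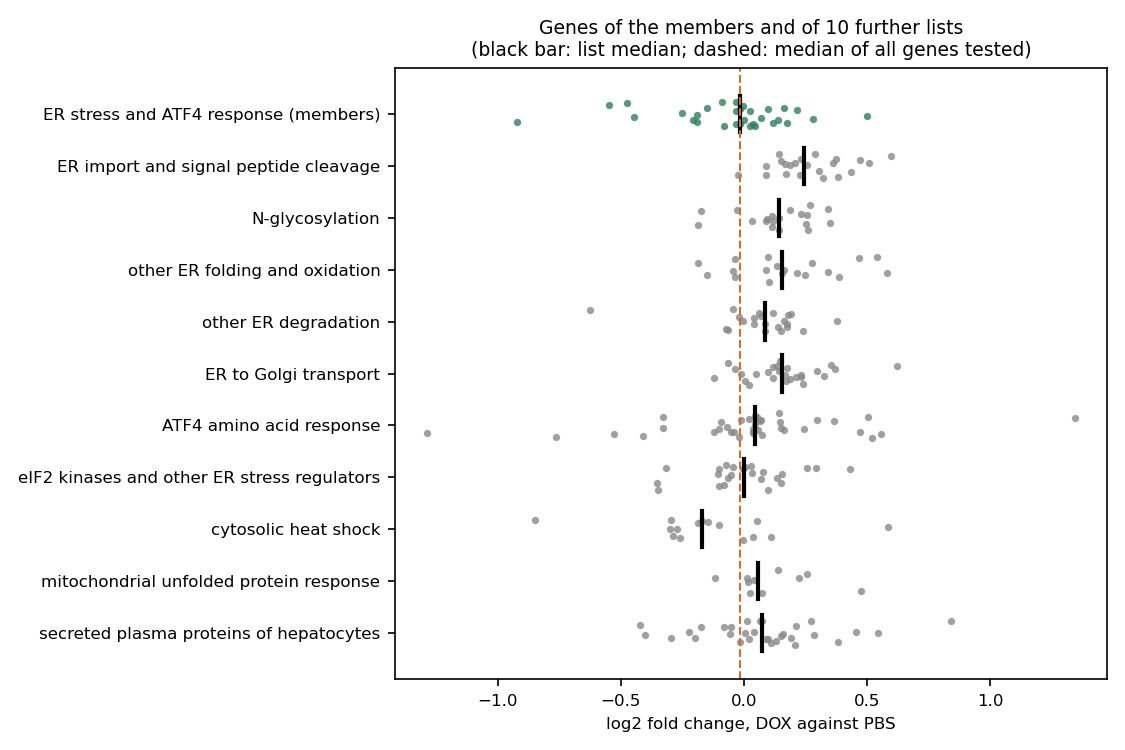
Log2 fold change of DOX against PBS for each gene (points) of the 31 ER stress and ATF4 response genes and of 10 further lists, with black bars for list medians and a dashed line for the median of all genes tested. The 31 genes centre on -0.01, ER import on 0.24 and cytosolic heat shock on -0.17.

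The secreted cargo itself was measured beside these lists. Of the 31 genes of plasma proteins, 21 were positive with a median of 0.07 and 0 were called (11 positive and a median of -0.06 by library size alone). Without DOX replicate 1 the median was 0.01 and without PBS replicate 3 it was 0.04, each with 16 of 31 positive. Apoa2, an apolipoprotein, averaged 2340.3 ± 118 CPM in PBS and 3414 ± 787 CPM in DOX (adjusted p = 0.435). Alb took 4.87%, 5.81% and 5.59% of counts in PBS and 10.1%, 6.09% and 10.2% in DOX (adjusted p = 0.457; log2 fold change 0.84, SE 0.31). The 31 ER stress and ATF4 response genes together took 0.576%, 0.569% and 0.839% of counts in PBS and 0.692%, 0.544% and 0.488% in DOX. DOX replicate 3, with the largest share of Alb (10.2%), had the smallest share of these genes (0.488%). DOX replicate 1, with nearly as much Alb (10.1%), had 0.692% of these genes, above every library but PBS replicate 3. A link between the shares was not tested.

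Total counts were 32826493 to 41102844 a library. The counts of replicates were further apart than sampling noise gives (chi-square per degree of freedom from 41.9 to 132.2). Of the 31 genes, 4 share exonic positions with another gene of the table (Manf with Dcaf1 and Rbm15b, Pdia3 with Catsper2, Ppp1r15a with Tulp2, Syvn1 with Mrpl49), and since the use of strand in counting is not given in the sources used here, their levels are uncertain in that respect.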

How the data were processed

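Total liver RNA of mice gave 6 libraries in 2 groups of 3, PBS and DOX. Per the labels' protocols, libraries were made with a SMARTER mRNA-Seq kit. Per the submitters' processing notes the builds are GRCm38 and mm10, and of the aligner, the counting tool and strandedness each is not given in the sources used here. Whole-number read counts per gene and FPKM were deposited by the authors. A check on both tables found that the deposited FPKM can be computed from the counts with a single length per gene and the library total, for 18913 of 18913 genes with enough counts (relative tolerance 1e-04). Each column of both tables belongs to a sample, and total counts were 32826493 to 41102844, so that 3 counts are 0.073 to 0.0914 CPM.

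The test was edgeR 4.0.16 in R 4.3.3 on the deposited counts (filterByExpr, TMM, quasi-likelihood test with legacy = TRUE), DOX against PBS without a block, and p-values were adjusted over all 13725 genes tested (Benjamini-Hochberg, threshold 0.05). The 31 genes were read from that fit. Alternatives were RLE or library-size scaling, DESeq2 1.42.0, other filters, a replicate block, fits without each library in turn, and limma 3.58.1 on log2 of FPKM plus 1 or 0.1. The procedure was also run on simulated counts, drawn independently for each gene. These hold no shift that many genes share in a single library, so the run is no check on such shifts. All 31 genes are named, and of each other pathway list the 2 of smallest p, with Bche and Alb. The genes and lists were chosen with earlier results of these data known. Motifs were searched in RefSeq promoters of GRCm38.p6, and gene positions are from GENCODE.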

Additional observations from a re-analysis of the deposited data

How the results depend on the processing

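None of the 31 genes was called in any of the 14 alternative settings, with a lowest adjusted p of 0.158 (Ddit3, DESeq2). The number of genes called over the whole table was 4 in the main fit, 180 with DESeq2, 61 without the low-count filter and 21 with the replicate block (17 higher, 4 lower), and 3 to 4 when 1 library was left out. Bche passed with DESeq2 (log2 fold change 1.68, adjusted p = 3.64e-08) and without the filter (1.68, adjusted p = 0.00569). Why these settings differ was not examined; the cause was not tested. The number of the 31 genes whose groups do not overlap was 3, and 3 to 9 when 1 library was left out: 8 without PBS replicate 3, of which 7 had DOX above, where 27.3% of all genes did not overlap, and 9 without DOX replicate 1, of which 7 had DOX below, where 28.6% of all genes did not, against 16.9% with all 6 libraries. The larger counts thus go with a larger share of all genes. There were 6 each without PBS replicate 1 and without DOX replicate 2, where 24.4% and 27.8% of all genes did not overlap. The median of the 31 ran from -0.17 (without DOX replicate 1, 7 of 31 positive) to 0.15 (without PBS replicate 3, 24 of 31 positive). Library-size scaling moved the median of all genes to -0.15 and that of the 31 to -0.14, a difference of 0.01 from all genes. Of the 31 genes, 22 changed sign in at least 1 setting. For PBS and DOX libraries that share a replicate number, the deviations correlated at 0.192, 0.130 and 0.0097 (replicates 1, 2 and 3). Replicates 1 and 2 thus exceeded every pair of unlike number, where the lowest correlation was -0.183 and the highest 0.0565. PBS replicate 3, by contrast, correlated best with DOX replicate 1 (0.0518). Whether the numbers pair the libraries is not settled by these values, and the main fit used no block. The replicate block called 0 of the 31 genes. Genes at 57 to 126 reads a library, such as Chac1, have wide intervals.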

Other observations

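Of the 31 ER stress and ATF4 response genes, 20 had a larger SD of log2 CPM among the PBS libraries than among the DOX libraries, which is 64.5%, against 46.8% of all genes tested. For the chaperones it was 9 of 11. Their median deviation was 0.67 in PBS replicate 3 and -0.21 and -0.19 in PBS replicates 1 and 2, so their PBS spread rests largely on replicate 3. Dnajb9 spanned 2.32-fold, Manf 2.21-fold and Hspa5 1.91-fold within PBS, and 1.46-fold, 1.63-fold and 1.49-fold within DOX.

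Plasma cell and B cell markers, which include cells with a large ER, summed to 434 to 525 CPM in PBS and 424 to 521 CPM in DOX, and nearly all of this was Sdc1 (488.9 ± 50.6 CPM in PBS and 456 ± 53.4 CPM in DOX), a syndecan that hepatocytes also express, which is named after its values were seen. Erythroid markers summed to 54.6 to 91.4 CPM in PBS and 24.0 to 179 CPM in DOX, and macrophage markers to 1105 to 1135 and 977 to 1307 CPM. The sums of PBS replicate 3 lay within the range of the other libraries for each of these lists.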
